A study of Mus musculus with 12 samples.

Results

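Integrins are the receptors by which endothelial cells hold the basement membrane, and 36 genes of this adhesion machinery, out of 49315 in the deposited gene tables, were followed across 3 mouse genotypes. The members were taken by name: 16 integrin alpha subunits, 8 integrin beta subunits and 12 cytoplasmic genes of the focal adhesion core (2 talins, 3 kindlins, vinculin, paxillin, focal adhesion kinase, integrin-linked kinase, 2 parvins and zyxin). RNA-seq had been made from forebrain endothelial cells of 12 embryos at E15.5 of gestation, 4 of each genotype and 1 embryo per library. The cells were sorted by flow cytometry as positive for CD31 and negative for CD140b, CD45 and the dead-cell dye 7-AAD. Wild-type embryos were set beside 2 homozygous mutants of Gpr124 (Adgra2), an adhesion receptor that endothelial cells of the embryonic forebrain need for vessel growth and WNT signaling. Gpr124ΔC/ΔC embryos carry a V5 tag and a stop codon after the last transmembrane segment, so that the receptor lacks its intracellular tail (it also reaches the cell surface in smaller amounts, and the effects of tail loss and lower amount cannot be told apart), and Gpr124-/- embryos are homozygous for a lacZ allele that removes the gene's function. Both alleles are constitutive, so the receptor was altered in every cell of the embryo and not only in the endothelium.

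An integrin is a pair of 1 alpha and 1 beta subunit: the alpha subunit mostly sets the ligand, and the beta subunit's short tail recruits talin and kindlin, which switch the receptor on. Talin joins the tail to actin and, under tension, recruits vinculin, while paxillin, focal adhesion kinase, integrin-linked kinase and the parvins assemble the signaling complex around it. In the embryonic brain, endothelial beta1 integrins bind fibronectin, laminins and collagens of the vessel wall.

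The libraries held 13877572 to 22551163 reads on genes (median 16984382), and levels are given as the authors' TPM (transcript abundance per unit of gene length, with equal sums across libraries), a scale on which genes can be compared. Gene positions are those of GRCm38. Per-library values follow 1 order throughout: JE1, JE6, KE8 and LE6 for wild type, JE3, JE4, LE2 and LE5 for Gpr124ΔC/ΔC, and KE4, ME1, ME4 and ME5 for Gpr124-/-. Adgra2 itself averaged 38.6 ± 10.4 TPM (SD, n = 4) in wild type, 43.4 ± 13.7 TPM in Gpr124ΔC/ΔC and 4.86 ± 0.988 TPM in Gpr124-/-, so the knockout label held in these libraries. All 12 endothelial markers examined were detected, with summed TPM of 5536 to 7928 per library. Single markers did differ in the edgeR test described below. In Gpr124-/- against wild type 3 (Emcn, Cdh5 and Pecam1) were higher and 2 (Tek and Erg) lower, and in Gpr124ΔC/ΔC 1 (Emcn) was higher. The letter that opens each embryo label is not explained by the labels, and letter M occurs only in 3 Gpr124-/- embryos. Those 3 libraries stood apart in platelet genes. Summed TPM of 11 platelet markers was 393 to 735 in wild type, 516 to 707 in Gpr124ΔC/ΔC and 702 in KE4, against 2336, 1768 and 2381 in ME1, ME4 and ME5. Platelets carry CD31, the marker used to collect the cells. Neuron markers, 8 genes, summed to 59.8 to 140.5 TPM in wild type, 88.7 to 161 TPM in Gpr124ΔC/ΔC and 142 to 198 TPM in Gpr124-/-, with 2 of the 8 higher in Gpr124-/- than in wild type. For 7 members (Itgal, Itgb2, Itgb3, Itgb5, Fermt3, Ilk and Zyx) the letter M libraries lay above the wild-type range and KE4 did not.

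In wild type, 7 members exceeded 100 TPM, 13 lay between 10 and 100 TPM, 5 between 1 and 10 TPM, and 11 at or under 1 TPM. Itgb1, the beta subunit shared by most matrix-binding integrins, was far above all others at 893 ± 123 TPM (SD, n = 4). It made up 96.2 ± 0.850% of the summed TPM of the 8 beta subunits, and Itgb3 made up a further 2.76 ± 0.771%. Among alpha subunits the fibronectin receptor subunit Itga5 led with 260.4 ± 38.2 TPM, followed by the collagen receptor subunits Itga1 (140.3 ± 23.9 TPM) and Itga2 (63.6 ± 11.1 TPM) and the laminin receptor subunit Itga6 (56.7 ± 12.1 TPM). The ranges of Itga2 and Itga6 overlapped, and their order differed between libraries. Itga6 was the higher in the letter J libraries JE1 and JE6, and Itga2 in KE8 and LE6. In the cytoplasm the kindlin Fermt2 (199.7 ± 9.46 TPM), the actin-binding zyxin Zyx (154 ± 5.71 TPM), focal adhesion kinase Ptk2 (131 ± 8.29 TPM) and the talin Tln1 (96.8 to 130.4 TPM over the 4 libraries) were highest. The leukocyte subunits Itgam and Itgax held 5 and 1 reads over all 12 libraries, and Ptprc, which encodes the CD45 used in the sort, did not exceed 0.0822 TPM in any library.

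**Figure D1:**
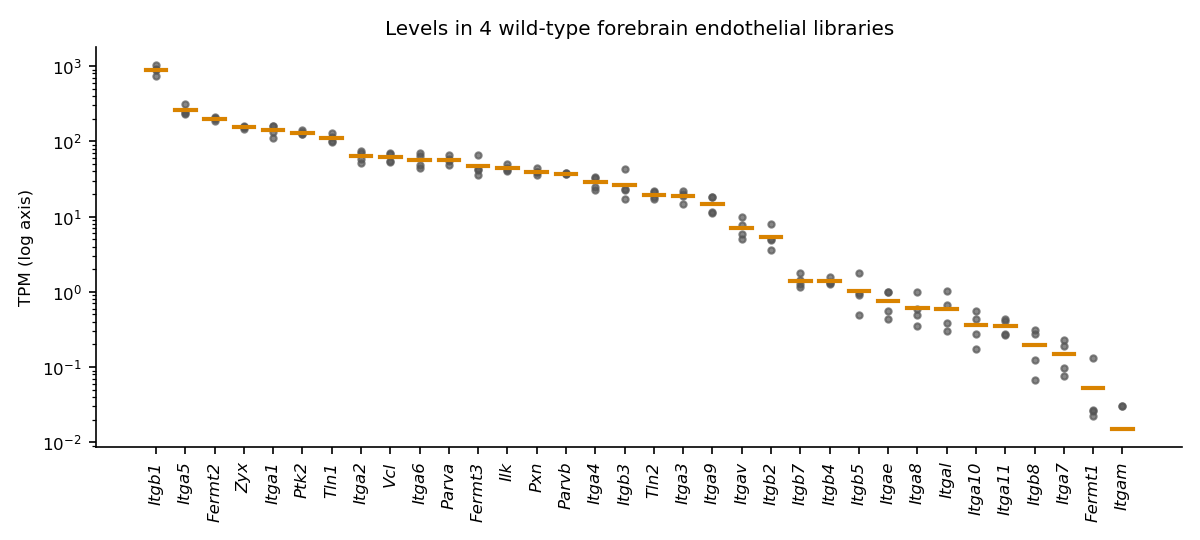
Levels of the members in the 4 wild-type libraries, ordered by their mean; each grey point is a library, each orange bar the mean, and the vertical axis is TPM on a log scale. Values of 0 and the 2 members at 0 in every wild-type library (Itgax and Itgb6) are not drawn; Itgb1 stands at 893 ± 123 TPM and the next gene, Itga5, at 260.4 ± 38.2 TPM.

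In Gpr124-/- the laminin receptor subunits Itga6 and Itgb4 and the fibronectin receptor subunit Itga5 were higher than in wild type, Itga4 and the talin Tln2 were lower, and the common partner Itgb1 showed no detectable difference. Of the 31 members with enough reads to test, 9 were higher and 5 lower in Gpr124-/- than in wild type (edgeR quasi-likelihood test, Benjamini-Hochberg adjusted p under 0.05 over 16637 genes), and 17 did not pass. The higher members were Itga5, Itga6, Itga9, Itgal, Itgb3, Itgb4, Tln1, Fermt3 and Ilk, and the lower members were Itga1, Itga4, Itgb7, Tln2 and Fermt2. These are 29.0% and 16.1% of the tested members, beside 10.5% and 9.32% of all genes tested. Of the 12 endothelial markers, 25% were higher and 16.7% lower in the same contrast. The members were chosen with earlier results of these data known, and their shares with the label letter in the model are given further below. Values after ± are standard errors (SE) for log2 fold changes and SD for TPM. When an absolute log2 fold change above 1 was also required, 6 were higher and 1 lower, or 19.4% and 3.23%, beside 5.67% and 4.21% of all genes. The TPM ranges of the 2 genotypes did not overlap for 7 members higher and 5 lower in Gpr124-/-, or 22.6% and 16.1%, beside 12% and 8.31% of all genes. The median log2 fold change was 0.399 over the 31 members and -0.01 over all genes. In sorted bulk cells, a smaller share of 1 cell type and less RNA per cell cannot be told apart.

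**Figure D2:**
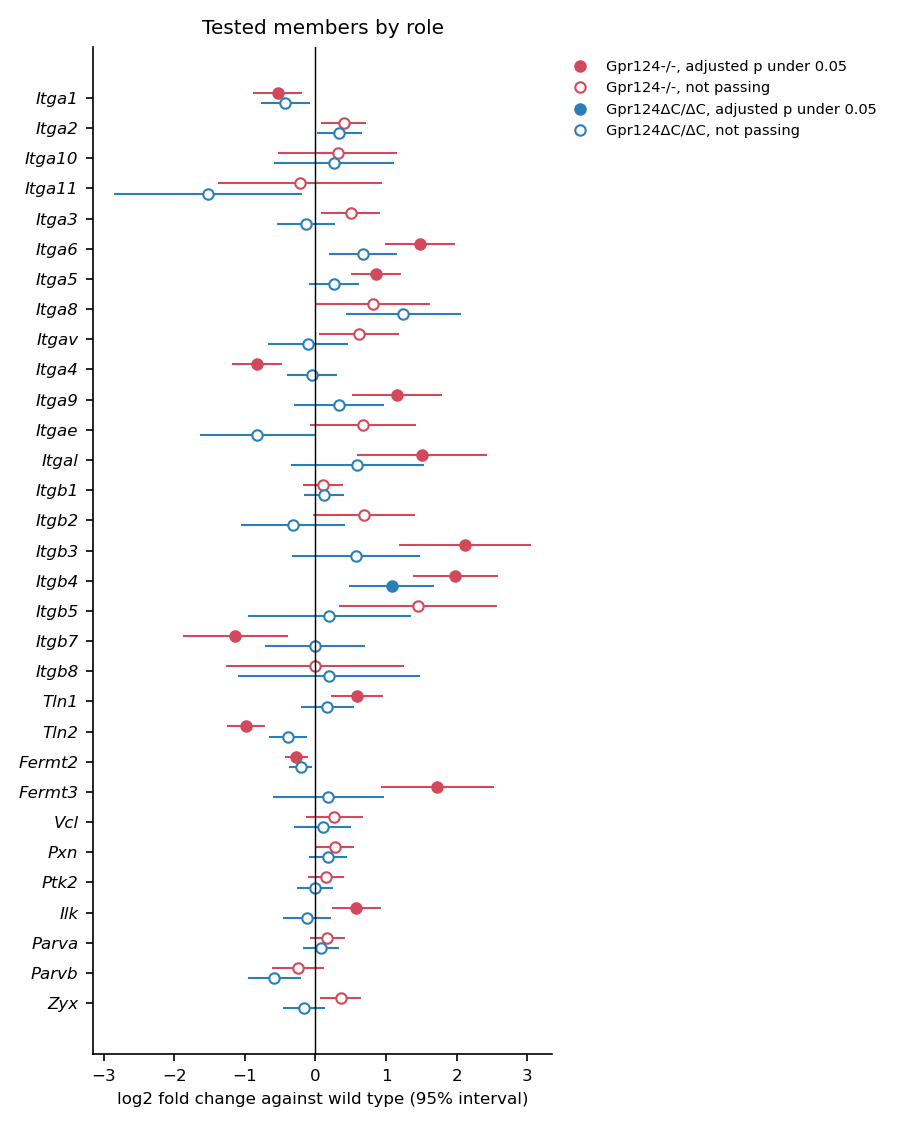
Log2 fold change against wild type for the 31 tested members in Gpr124-/- (red) and Gpr124ΔC/ΔC (blue), grouped by role, with 95% intervals as bars and filled symbols where the adjusted p was under 0.05. The filled symbols are 14 in red and 1 in blue (Itgb4), and both contrasts use the same 4 wild-type libraries.

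The laminin receptor subunits Itga6 and Itgb4 were both higher in Gpr124-/-. Itga6 (ENSMUSG00000027111, chr2:71745616-71858416), whose product pairs with beta1 or beta4 to bind laminins of the vessel basement membrane, stood at 69.6, 64.0, 48.8 and 44.3 TPM in the wild-type libraries, 117, 102.5, 83.7 and 75.1 TPM in Gpr124ΔC/ΔC and 135, 153, 217 and 154 TPM in Gpr124-/-. Every Gpr124-/- library lay above every Gpr124ΔC/ΔC library, and every Gpr124ΔC/ΔC library above every wild-type one. The log2 fold change of Gpr124-/- against wild type was 1.48 ± 0.23 (SE), adjusted p = 0.000487, a 2.796-fold difference. Itgb4 (ENSMUSG00000020758, chr11:115974709-116008412), the partner that pairs only with alpha6, stood at 1.32, 1.35, 1.29 and 1.58 TPM in the wild-type libraries, 2.71, 3.31, 3.57 and 2.83 TPM in Gpr124ΔC/ΔC and 2.98, 5.42, 5.14 and 8.80 TPM in Gpr124-/-. It was low throughout, yet the wild-type libraries lay within a narrow band and all 8 mutant libraries lay above it; within Gpr124-/- the 3 letter M libraries, those with the most platelet marker RNA, were above KE4. The log2 fold change was 1.98 ± 0.28 (SE), adjusted p = 0.000241. Itga3, another laminin receptor subunit, differed by 0.50 ± 0.19 on the log2 scale and did not pass (adjusted p = 0.0902), although its lowest Gpr124-/- library (24.7 TPM) was above its highest wild-type library (21.8 TPM). Itga7 had 69 reads in all and was not tested; it stood at 0.0960, 0.229, 0.0751 and 0.189 TPM in the wild-type libraries, 0.324, 0.0532, 0 and 0.0952 TPM in Gpr124ΔC/ΔC and 0.302, 0.467, 0.447 and 0.490 TPM in Gpr124-/-.

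Of the subunits that bind fibronectin, Itga5 was higher and Itga4 lower. Itga5 (ENSMUSG00000000555, chr15:103344286-103366763), the alpha subunit of the main fibronectin receptor, stood at 241, 231, 253 and 316 TPM in the wild-type libraries, 237, 298, 391 and 408.5 TPM in Gpr124ΔC/ΔC and 388, 415.5, 513.5 and 616 TPM in Gpr124-/-. All Gpr124-/- libraries lay above all wild-type libraries, with a log2 fold change of 0.86 ± 0.16 (SE), adjusted p = 0.00239. The letter M libraries were the highest, and without them it was 0.47 (adjusted p = 0.329). Itga4 (ENSMUSG00000027009, chr2:79255426-79333123), which binds fibronectin at another site and the adhesion molecule VCAM1, stood at 24.9, 22.8, 34.0 and 33.0 TPM in the wild-type libraries, 19.0, 27.4, 37.5 and 34.5 TPM in Gpr124ΔC/ΔC and 19.2, 16.99, 17.6 and 12.3 TPM in Gpr124-/-. All 4 Gpr124-/- libraries lay below the wild-type range, and the Gpr124ΔC/ΔC libraries spanned it; the log2 fold change of Gpr124-/- against wild type was -0.83 ± 0.16 (SE), adjusted p = 0.003. Itga9, the closest relative of Itga4, moved the other way, at 18.3, 18.0, 11.02 and 11.4 TPM in the wild-type libraries, 26.1, 19.6, 17.1 and 14.6 TPM in Gpr124ΔC/ΔC and 21.9, 30.8, 38.0 and 45.0 TPM in Gpr124-/-. Its Gpr124-/- libraries were all above the wild-type ones and the log2 fold change was 1.16 ± 0.30 (SE), adjusted p = 0.0144, a call that was lost without ME5 (adjusted p = 0.054). Its letter M libraries were also the highest, and without them the value was 0.45 (adjusted p = 0.766). Itgav, the alpha subunit of vitronectin receptors, gave 0.61 ± 0.26 (adjusted p = 0.129), with 95% interval 0.047 to 1.18. Itga8, near 1 TPM, gave 0.81 ± 0.38 (adjusted p = 0.163).

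Of the 4 collagen-binding subunits Itga1 passed, and Itga2, Itga10 and Itga11 did not. Itga1 (ENSMUSG00000042284, chr13:114958079-115101964) stood at 133, 109.9, 161 and 158 TPM in the wild-type libraries, 62.7, 108, 145 and 132 TPM in Gpr124ΔC/ΔC and 104, 91.2, 100.3 and 101 TPM in Gpr124-/-. The Gpr124-/- libraries formed a tight group just under the lowest wild-type library, and in Gpr124ΔC/ΔC the library JE3 was far below its 3 companions. The log2 fold change was -0.54 ± 0.16 (SE), adjusted p = 0.0323, and the call was lost when any 1 of KE8, LE6, KE4, ME1, ME4 or ME5 was left out (adjusted p up to 0.082). Itga2, the other main collagen receptor subunit, ranged from 51.3 to 74.9 TPM in wild type and from 76.7 to 99.8 TPM in Gpr124-/-, without overlap, but its log2 fold change of 0.40 ± 0.15 did not pass (adjusted p = 0.077). Itga10 and Itga11, under 1 TPM in every library, did not pass (adjusted p = 0.643 and 0.832).

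Because GPR124 acts with WNT ligands, the promoters of the members were searched for the TCF/LEF core CTTTGA on both strands, over 250 bases before to 50 bases after each RefSeq gene start (GRCm38.p6). The table held 25 of the 36 members, and 3 of them carried the core (Itga1, Itga10 and Itgam), beside 16.0% of all 32851 promoters. Among the 14 members that changed in Gpr124-/-, 9 had a promoter in the table and 1, Itga1, carried the core. Its window is shown because it is the only changed member with a match; it lies on the minus strand at chr13:115101915-115102214, and the capitals mark the core, which begins 113 bases before the gene start. The match is a description of these letters and not a binding site.
Itga1 promoter: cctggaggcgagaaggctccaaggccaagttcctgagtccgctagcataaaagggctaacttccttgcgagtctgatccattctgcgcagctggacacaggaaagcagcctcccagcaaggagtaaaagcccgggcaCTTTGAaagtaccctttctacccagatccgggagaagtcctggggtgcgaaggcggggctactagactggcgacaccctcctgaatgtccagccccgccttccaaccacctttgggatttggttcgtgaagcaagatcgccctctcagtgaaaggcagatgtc

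Among beta subunits, Itgb1 stood at 890.1, 730.1, 925 and 1028 TPM in the wild-type libraries, 695, 1099, 1188 and 1165 TPM in Gpr124ΔC/ΔC and 1021, 986, 1195 and 760.3 TPM in Gpr124-/-. The 3 genotypes overlapped, and the log2 fold change of 0.11 ± 0.13 (adjusted p = 0.639) had a 95% interval of -0.18 to 0.39. Itgb3 (ENSMUSG00000020689, chr11:104608000-104670476), which pairs with alpha-V in endothelium and with Itga2b as the fibrinogen receptor of platelets, stood at 22.5, 17.2, 23.1 and 42.4 TPM in the wild-type libraries, 23.8, 32.0, 53.7 and 57.5 TPM in Gpr124ΔC/ΔC and 34.6, 138, 117 and 171 TPM in Gpr124-/-. KE4 lay inside the wild-type range and the 3 letter M libraries lay far above it. Its log2 fold change was 2.12 ± 0.43 (SE), adjusted p = 0.00356, the largest rise among the tested members. Itga2b, 1 of the 11 platelet markers and not an endothelial gene, stood at 27.5, 23.1, 27.7 and 42.7 TPM in the wild-type libraries, 30.4, 36.9, 47.4 and 45.9 TPM in Gpr124ΔC/ΔC and 42.6, 184, 143 and 234 TPM in Gpr124-/-, and 9 of the 11 platelet markers were higher in Gpr124-/- than in wild type (median log2 fold change 1.982). The ratio of Itgb3 to Itga2b was 0.820, 0.745, 0.834 and 0.992 in wild type, 0.782, 0.867, 1.14 and 1.25 in Gpr124ΔC/ΔC and 0.811, 0.748, 0.818 and 0.731 in Gpr124-/-, so the 3 libraries with the most Itgb3 had ratios within the wild-type range or just under it. With KE4 as the only Gpr124-/- library, the log2 fold change of Itgb3 was 0.30 (adjusted p = 0.871). The part of platelet RNA in the Itgb3 difference was not tested beyond these values.

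**Figure D3:**
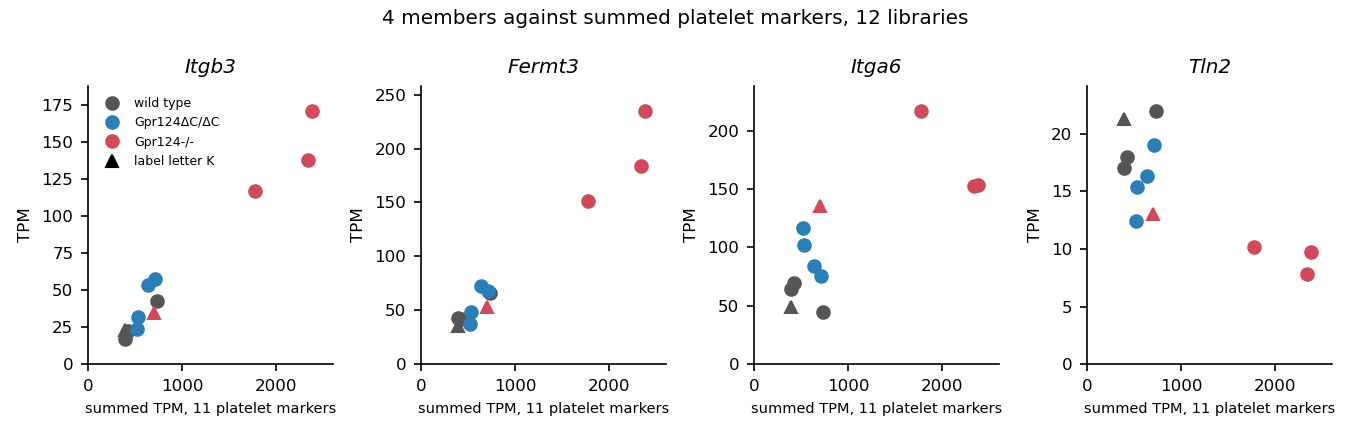
TPM of Itgb3, Fermt3, Itga6 and Tln2 in each of the 12 libraries (vertical axes) against the summed TPM of 11 platelet markers in the same library (horizontal axes); colours are genotypes and triangles the 2 libraries with label letter K. For Itgb3 and Fermt3 the Gpr124-/- library KE4 sits among the wild-type points, and for Itga6 (135 TPM) and Tln2 (13.0 TPM) it sits outside the wild-type range.

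The remaining beta subunits were scarce. Itgb7, a lymphocyte subunit that pairs with alpha4 or alphaE, stood at 1.26, 1.45, 1.15 and 1.77 TPM in the wild-type libraries, 1.24, 0.933, 2.28 and 1.53 TPM in Gpr124ΔC/ΔC and 0.883, 0.478, 0.906 and 0.358 TPM in Gpr124-/-. Its log2 fold change was -1.14 ± 0.34 (SE), adjusted p = 0.0343 on 234 reads in all, and the call was lost without any 1 of JE1, JE6, LE6, ME1 or ME5 (adjusted p up to 0.0912). Itgb2, the leukocyte beta subunit, stood at 4.36, 9.09, 9.23 and 12.8 TPM in Gpr124-/- against 3.602 to 8.02 TPM in wild type, again with the letter M libraries highest (0.69 ± 0.33, adjusted p = 0.185), and Itgb5, a partner of alpha-V, gave 1.46 ± 0.51 (adjusted p = 0.0665). Itgb5 stood at 0.875, 3.90, 2.59 and 4.24 TPM in Gpr124-/- against 0.497 to 1.76 TPM in wild type, so KE4 was inside the wild-type range and the letter M libraries, which also held the most platelet marker RNA, above it. Itgb8 showed a log2 fold change of -0.0068 with an interval of -1.27 to 1.25, too wide to tell at 168 reads, and Itgb6 had 4 reads in all and was not tested.

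Of the 4 leukocyte alpha subunits, Itgal passed, Itgae did not, and Itgam and Itgax had too few reads. Itgal, the alpha subunit of LFA-1, stood at 0.391, 0.302, 1.03 and 0.671 TPM in the wild-type libraries, 0.841, 0.812, 1.23 and 0.901 TPM in Gpr124ΔC/ΔC and 0.895, 1.54, 1.26 and 3.17 TPM in Gpr124-/-. Its log2 fold change was 1.51 ± 0.43 (SE), adjusted p = 0.0242, KE4 lay within the wild-type range, and the call was lost without any 1 of JE1, JE6, LE6 or ME5 (adjusted p up to 0.0752). Itgae, which pairs with beta7 to bind E-cadherin, gave 0.68 ± 0.35 (adjusted p = 0.212). The 14 macrophage markers summed to 277 to 359 TPM in wild type, 171 to 240 TPM in Gpr124ΔC/ΔC and 172 to 245 TPM in Gpr124-/-, and Laptm5, which was lower in Gpr124-/- (-1.26 ± 0.14, adjusted p = 4.07e-05), accounted for 108.2 to 336 TPM of it. The other 13 markers summed to 22.8 to 31.3 TPM in wild type, 34.7 to 53.3 TPM in Gpr124ΔC/ΔC and 63.6, 115, 72.8 and 96.5 TPM in KE4, ME1, ME4 and ME5. Of them Fcer1g (1.94 ± 0.35, adjusted p = 0.00166) and P2ry12 (2.57 ± 0.42, adjusted p = 0.000734) passed as higher in Gpr124-/-, both highest in the letter M libraries, and both are genes that platelets also express. The remaining 11 markers summed to 7.24 to 11.04 TPM in wild type, 8.01 to 19.2 TPM in Gpr124ΔC/ΔC, 29.4 TPM in KE4 and 6.44, 3.52 and 6.51 TPM in ME1, ME4 and ME5. Beside Itgal, as beside Itgb3, the platelet markers were highest in the letter M libraries, and the part of platelet or macrophage RNA in the Itgal difference was not tested.

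**Figure D4:**
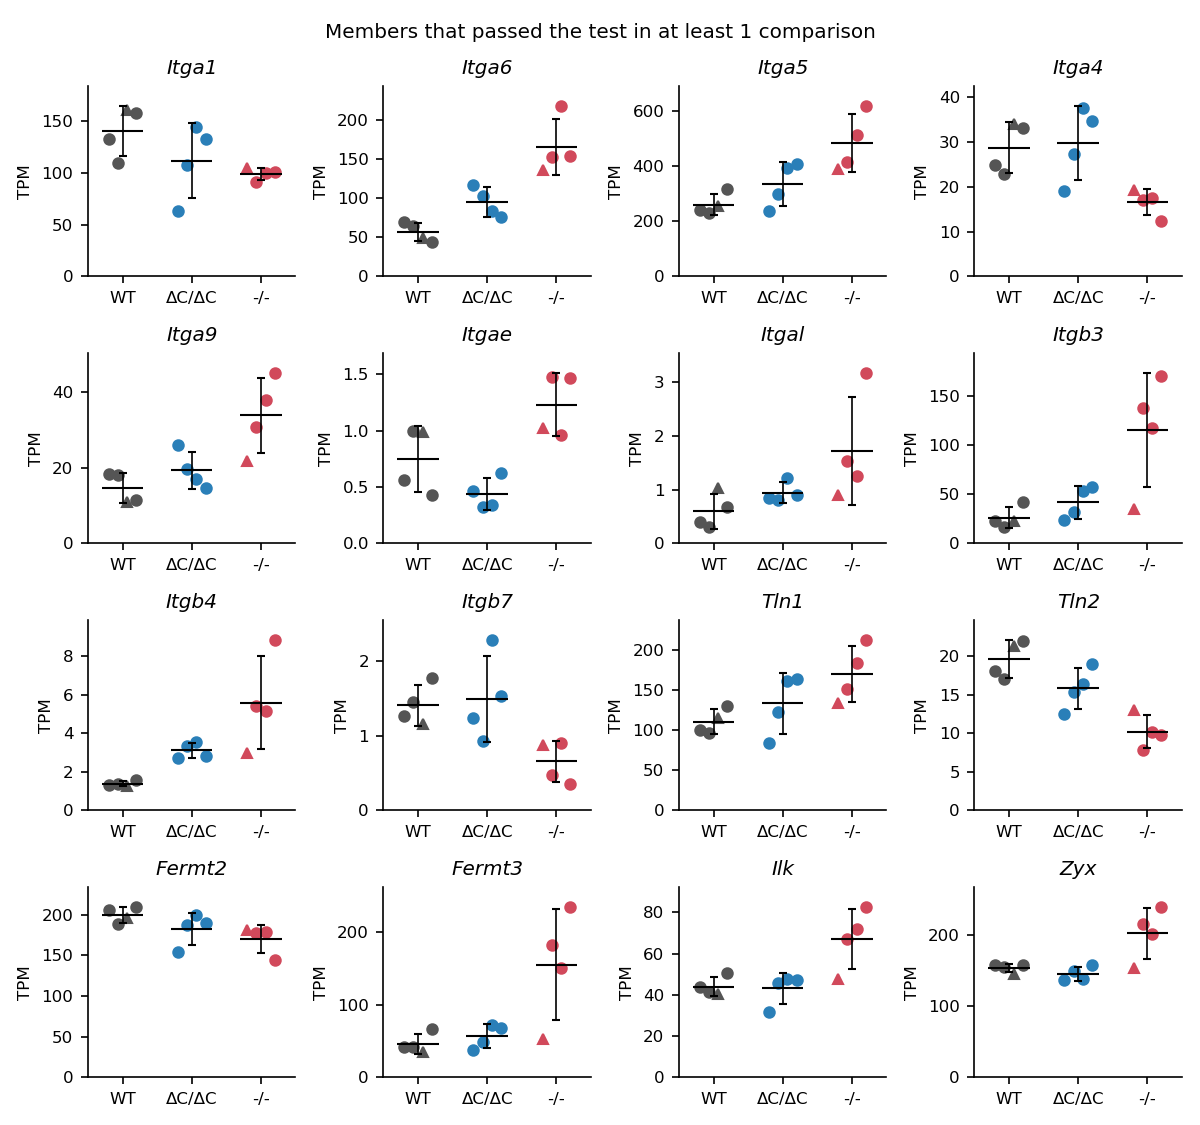
TPM per library of the 16 members with an adjusted p under 0.05 in at least 1 of the 3 comparisons, each panel with its own axis from 0. Points are libraries, triangles those with label letter K, lines the mean and bars the SD of 4 libraries; the means of Itga6 and Itgb4 are lowest in wild type and highest in -/-, and the mean of Tln2 has the opposite order.

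The talins passed in opposite directions. Tln1, the talin that activates integrins in most cells, stood at 99.9, 96.8, 115.5 and 130.4 TPM in the wild-type libraries, 84.6, 123, 161 and 164 TPM in Gpr124ΔC/ΔC and 134, 151.5, 183 and 212 TPM in Gpr124-/-, with a log2 fold change of 0.59 ± 0.17 (SE), adjusted p = 0.0294. The call was lost without any 1 of JE1, JE6, KE8, ME4 or ME5 (adjusted p up to 0.0838). The letter M libraries, which held the most platelet marker RNA, lay above KE4, and without them the log2 fold change of Tln1 was 0.17 (adjusted p = 0.857). Tln2 (ENSMUSG00000052698, chr9:67217087-67559703), its paralog, stood at 18.0, 17.03, 21.3 and 22.0 TPM in the wild-type libraries, 12.5, 15.3, 16.4 and 19.0 TPM in Gpr124ΔC/ΔC and 13.0, 7.85, 10.1 and 9.70 TPM in Gpr124-/-. All 4 Gpr124-/- libraries lay below all wild-type libraries, KE4 included, and the log2 fold change was -0.99 ± 0.12 (SE), adjusted p = 0.000104, the smallest adjusted p of any member in this contrast. The ratio of Tln1 to Tln2, taken up after these values were seen and given without a test, was 5.54, 5.68, 5.42 and 5.94 in wild type, 6.78, 8.02, 9.84 and 8.64 in Gpr124ΔC/ΔC and 10.3, 19.3, 18.1 and 21.8 in Gpr124-/-. The 3 genotypes did not overlap in this ratio, and KE4 at 10.3 was closest to the Gpr124ΔC/ΔC libraries.

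Of the kindlins Fermt2 passed as lower and Fermt3 as higher. Fermt2, the kindlin of endothelium and most adherent cells, stood at 206, 188, 196 and 209 TPM in the wild-type libraries, 155, 187, 199.8 and 189.5 TPM in Gpr124ΔC/ΔC and 182, 178, 179 and 145 TPM in Gpr124-/-. Its difference was small, with a log2 fold change of -0.27 ± 0.076 (SE), adjusted p = 0.0249, and the call was lost without any 1 of JE1, JE6, LE6 or ME4 (adjusted p up to 0.0625). Fermt3 (ENSMUSG00000024965, chr19:6998958-7019469), the kindlin of platelets and other blood cells, stood at 41.5, 42.4, 35.7 and 66.4 TPM in the wild-type libraries, 37.3, 48.3, 72.8 and 67.8 TPM in Gpr124ΔC/ΔC and 53.4, 183, 151 and 235 TPM in Gpr124-/-. As for Itgb3, KE4 was inside the wild-type range and the letter M libraries were far above it; the log2 fold change was 1.72 ± 0.37 (SE), adjusted p = 0.00499, and with KE4 alone it was 0.10 (adjusted p = 0.956). As a platelet gene Fermt3 was highest where the 11 platelet markers were, and their part in its difference was not tested further. Fermt1, the epithelial kindlin, had 31 reads in all and was not tested.

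Of the 7 adaptor and kinase genes, Ilk alone passed. Ilk, the pseudokinase that ties beta tails to parvins, stood at 43.7, 41.4, 40.2 and 50.6 TPM in the wild-type libraries, 31.8, 45.6, 47.8 and 47.3 TPM in Gpr124ΔC/ΔC and 47.6, 67.2, 71.7 and 82.3 TPM in Gpr124-/-. Its log2 fold change was 0.58 ± 0.16 (SE), adjusted p = 0.0217; KE4 was within the wild-type range, and the call was lost without any 1 of JE1, KE8, ME1, ME4 or ME5 (adjusted p up to 0.057). Other genes on the opposite strand, Taf10 and Rrp8, cover 76.7% and 12.9% of the bases of Ilk, and the strand setting of the counting is not given in the sources used here, so the Ilk values may hold reads of these neighbours. The libraries high in Ilk were also those high in platelet markers, whose part was not tested. Zyx gave 0.36 ± 0.14 (adjusted p = 0.091) in this contrast. Focal adhesion kinase Ptk2 gave 0.15 ± 0.12 with an interval of -0.10 to 0.41, paxillin Pxn 0.27 ± 0.12 (0.0044 to 0.54), the parvin Parva 0.17 ± 0.12 (-0.082 to 0.42) and vinculin Vcl 0.27 ± 0.19 (-0.14 to 0.67). Adjusted p for these 4 ran from 0.156 to 0.423. Parvb, the second parvin, had -0.25 ± 0.17 (adjusted p = 0.364). Ap3m1 on the other strand covers 39.9% of the bases of Vcl, and in all 12 members share some bases with another annotated gene.

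The 14 members differed in where KE4 lay. Of the 9 that were higher in Gpr124-/-, 5 (Itga5, Itga6, Itga9, Itgb4 and Tln1) had KE4 above the wild-type range and 4 (Itgal, Itgb3, Fermt3 and Ilk) did not. All 5 that were lower (Itga1, Itga4, Itgb7, Tln2 and Fermt2) had KE4 below it. The platelet sum of KE4 (702 TPM) was inside the wild-type range of 393 to 735 TPM. Its neuron sum (142 TPM) was just above the wild-type range. Its 13 macrophage markers other than Laptm5 summed to 63.6 TPM against 22.8 to 31.3 TPM in wild type. The complement genes C1qa (5.16 TPM), C1qb (6.84 TPM) and C1qc (3.135 TPM), made by macrophages, were higher in KE4 than in any of the other 11 libraries. The part of other cell types in these differences was not tested. Against KE8, the only other letter K embryo and wild type, the log2 ratio of TPM in KE4 was 1.47 for Itga6, 1.21 for Itgb4, 0.99 for Itga9 and 0.61 for Itga5. It was -0.82 for Itga4, -0.71 for Tln2 and -0.62 for Itga1. The ratio was smaller for Tln1 (0.21), Itgb7 (-0.39), Fermt2 (-0.11) and Ilk (0.24), 0.58 for Itgb3 and 0.58 for Fermt3, and of opposite sign to the full comparison for Itgal (-0.20). That is 1 library against 1, with no test. KE8 stood apart in summed fibroblast markers (70.2 TPM against 9.36 to 18.6 TPM in the other 11 libraries) and had the highest pericyte marker sum (65.5 TPM), whose part was not tested. With the label letter as a term in the model, Itga6 (1.43, adjusted p = 0.0024), Itga4 (-0.87, adjusted p = 0.0333) and Tln2 (-0.76, adjusted p = 0.0278) passed. That is 1 higher and 2 lower, or 3.23% and 6.45% of the members beside 3.63% and 2.53% of all genes. No letter but K holds both Gpr124-/- and wild type, so these fold changes are again KE4 against KE8, with the spread taken from the other libraries, and add no separate evidence. Of the 11 that did not pass, the fold change was about as large as in the full comparison or larger for Itga1 (-0.67) and Itga9 (0.94). It was smaller for Itga5 (0.57), Itgb4 (1.16), Itgb7 (-0.43) and Fermt2 (-0.15). It was much smaller or reversed for Tln1 (0.17), Itgb3 (0.54), Fermt3 (0.54) and Itgal (-0.25), with Ilk at 0.20. When the 3 letter M libraries were left out, an alternative chosen after the platelet values were seen, 1 member was higher (Itgb4, 0.999, adjusted p = 0.037) and 0 were lower by edgeR, beside 1.77% and 1.88% of the 18471 genes tested in that fit, with 5 higher and 3 lower at an unadjusted p under 0.05. Tln2 (-0.69, adjusted p = 0.0516) and Itga6 (1.14, adjusted p = 0.125) came next. KE4 was then assumed to vary as the other genotypes do.

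In Gpr124ΔC/ΔC most members showed no detectable difference from wild type. In Gpr124ΔC/ΔC against wild type, 1 of the 31 members (Itgb4) was higher and 0 were lower by edgeR at an adjusted p under 0.05, beside 1.85% and 2.24% of all genes. At an unadjusted p under 0.05, 4 of the 31 were higher and 6 lower, beside 1206 and 1193 of all 16637 genes. DESeq2 gave 2 higher and 1 lower at an adjusted p under 0.05, and its share over all genes was not taken. With an absolute log2 fold change above 1 also required, edgeR again gave 1 higher and 0 lower, beside 0.890% and 1.03% of all genes. Ranges did not overlap for Itga6 and Itgb4 (higher) and for Itga11 and Parvb (lower), 6.45% in each direction, beside 5.66% and 3.19% of all genes. The median log2 fold change was 0.105 over the members and 0.006 over all genes.

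For Itgb4 the log2 fold change in Gpr124ΔC/ΔC was 1.08 ± 0.28 (SE), adjusted p = 0.0471. It was positive within both letters that held the 2 genotypes, at 1.18 for letter J (2 libraries against 2) and 1.02 for letter L (2 against 1), as log2 ratios of mean TPM. The call was close to the threshold and was lost without any 1 of the 4 wild-type or 4 Gpr124ΔC/ΔC libraries, ME1 or ME4 (adjusted p up to 0.13). Itga6 gave 0.67 ± 0.22 (adjusted p = 0.141), with no overlap of libraries and the smallest exact permutation p that 4 against 4 allows (0.0286, two-sided). With the label letter as a term, Itga6 (0.70, adjusted p = 0.00382) and Itga8 (1.59, adjusted p = 0.021) passed as higher beside Itgb4, and Itga1 (-0.47, adjusted p = 0.0429) and Tln2 (-0.40, adjusted p = 0.0323) as lower, beside 2.53% and 3.37% of all genes. Parvb stood at 37.5, 37.8, 36.3 and 36.7 TPM in the wild-type libraries, 30.7, 23.1, 21.9 and 27.8 TPM in Gpr124ΔC/ΔC and 27.7, 38.0, 29.2 and 33.1 TPM in Gpr124-/-. All 4 Gpr124ΔC/ΔC libraries were below the narrow wild-type band, with a log2 fold change of -0.58 ± 0.17 (adjusted p = 0.0896), and without JE3 the adjusted p was 0.0136. Itga8 gave 1.24 ± 0.38 (adjusted p = 0.0969), and Itgb1 gave 0.12 ± 0.13 with an interval of -0.16 to 0.41. The values of Itga5 (0.27 ± 0.16), Itga4 (-0.046 ± 0.16), Itgb3 (0.57 ± 0.42) and Fermt3 (0.18 ± 0.36), all with adjusted p of 0.548 or above, stand beside the Gpr124-/- values given above; the 2 contrasts share their wild-type libraries. Of the 11 platelet markers, 0 passed in Gpr124ΔC/ΔC by edgeR (0 higher and 0 lower at an unadjusted p under 0.05).

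The mutants were also compared with each other; 3 of the 4 Gpr124-/- libraries carry letter M, which holds no Gpr124ΔC/ΔC embryo, so letter and genotype largely cannot be told apart here. In this contrast 7 members, Fermt3, Ilk, Itga5, Itga6, Itgae, Itgb3 and Zyx, were higher in Gpr124-/- than in Gpr124ΔC/ΔC, and 2, Itga4 and Tln2, were lower. These are 22.6% and 6.45% of the 31 members, beside 4.93% and 3.89% of all genes. With a log2 fold change above 1 required, 3 were higher (Fermt3, Itgae and Itgb3) and 0 lower, beside 2.67% and 1.94% of all genes. Ranges did not overlap for 3 higher (Itga3, Itga6 and Itgae) and 1 lower (Itgb7), beside 6.08% and 5.40% of all genes.

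Itga6 differed by 0.81 ± 0.22 (SE), adjusted p = 0.0416, Itga4 by -0.79 ± 0.16 (SE), adjusted p = 0.0111 and Tln2 by -0.59 ± 0.12 (SE), adjusted p = 0.011 on the log2 scale. Itga4 and Tln2 passed in all 12 fits that left out 1 library, and Itga6 was lost without any 1 of JE4, LE2, LE5, ME1, ME4 or ME5. KE4 lay inside the Gpr124ΔC/ΔC range for Itga4, Tln2 and Itga5, and above it for Itga6. Itga5 differed by 0.59 ± 0.16 (SE), adjusted p = 0.0412, and was lost without any 1 of JE1, JE6, JE3, JE4, LE2, ME1, ME4 or ME5. Itgae stood at 0.560, 1.001, 0.986 and 0.431 TPM in the wild-type libraries, 0.461, 0.326, 0.342 and 0.625 TPM in Gpr124ΔC/ΔC and 1.02, 1.47, 0.965 and 1.47 TPM in Gpr124-/-; its difference of 1.502 ± 0.37 (SE), adjusted p = 0.0241 was lost without JE4, LE2, ME1 or ME5, and it rests on 271 reads in all. Zyx, a LIM-domain protein of adhesions and actin fibers, stood at 157, 155, 146 and 158 TPM in the wild-type libraries, 137, 149, 138.5 and 158 TPM in Gpr124ΔC/ΔC and 153, 216, 201 and 239 TPM in Gpr124-/-. Its difference was 0.52 ± 0.14 (SE), adjusted p = 0.0332, and KE4 lay within the Gpr124ΔC/ΔC range while the letter M libraries lay above it; the call was lost without any 1 of JE4, LE2, LE5, ME1, ME4 or ME5. Ilk (0.70 ± 0.16, adjusted p = 0.0171), Fermt3 (1.54 ± 0.37, adjusted p = 0.0208) and Itgb3 (1.55 ± 0.42, adjusted p = 0.0396) showed the same placement of libraries. Ilk passed without any 1 library, Fermt3 was lost without JE3, JE4, ME1 or ME5, and Itgb3 was lost without JE1, any 1 of the Gpr124ΔC/ΔC libraries or any 1 of the letter M libraries. Platelet markers passed as higher for 8 of 11 genes in this contrast too, and with the letter M libraries left out the log2 fold changes were 0.053 for Zyx, 0.14 for Ilk, -0.082 for Fermt3 and -0.26 for Itgb3. They were then 0.47 for Itga6, 0.21 for Itga5, 1.17 for Itgae, -0.62 for Itga4 and -0.29 for Tln2. In that fit 0 members were higher and 0 lower by edgeR (1 and 1 at an unadjusted p under 0.05), beside 0.0541% and 0.0379% of all genes, and with the label letter also 0 and 0 (2 and 1), beside 0.974% and 0.301%.

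Ratios within a library do not depend on its scaling, and are given as descriptions chosen after the values were seen. Itga5 over Itga4 was 9.70, 10.1, 7.44 and 9.59 in wild type, 12.5, 10.9, 10.4 and 11.8 in Gpr124ΔC/ΔC and 20.1, 24.4, 29.2 and 49.8 in Gpr124-/-. Every library of a genotype lay above every library of the one before it in this ratio. Itga6 over Itga1 was 0.525, 0.582, 0.304 and 0.281 in wild type, 1.87, 0.953, 0.579 and 0.568 in Gpr124ΔC/ΔC and 1.30, 1.67, 2.16 and 1.53 in Gpr124-/-. Here wild type and Gpr124ΔC/ΔC overlapped, and the highest Gpr124ΔC/ΔC value belonged to JE3, the library low in Itga1. Within letter J (JE3 and JE4 against JE1 and JE6) and within letter L (LE2 and LE5 against LE6), every Gpr124ΔC/ΔC library lay above wild type. The overlap was between libraries of different letters. Sums of alpha subunits here cover the members only, and so leave out Itga2b. Itga1 made up 23.6 ± 2.43% of summed alpha subunit TPM in wild type, 15.54 ± 2.796% in Gpr124ΔC/ΔC and 10.8 ± 1.53% in Gpr124-/- (SD, n = 4), while Itga6 made up 9.73 ± 2.77%, 14.1 ± 5.50% and 17.8 ± 2.78%. The summed TPM of alpha subunits was 530 to 664 in wild type, 544 to 809 in Gpr124ΔC/ΔC and 806 to 1051 in Gpr124-/-, so that Gpr124-/- lay above wild type and the other pairs of genotypes overlapped, and that of beta subunits overlapped between all 3 at 756 to 1082, 727 to 1255 and 957 to 1330.

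**Figure D5:**
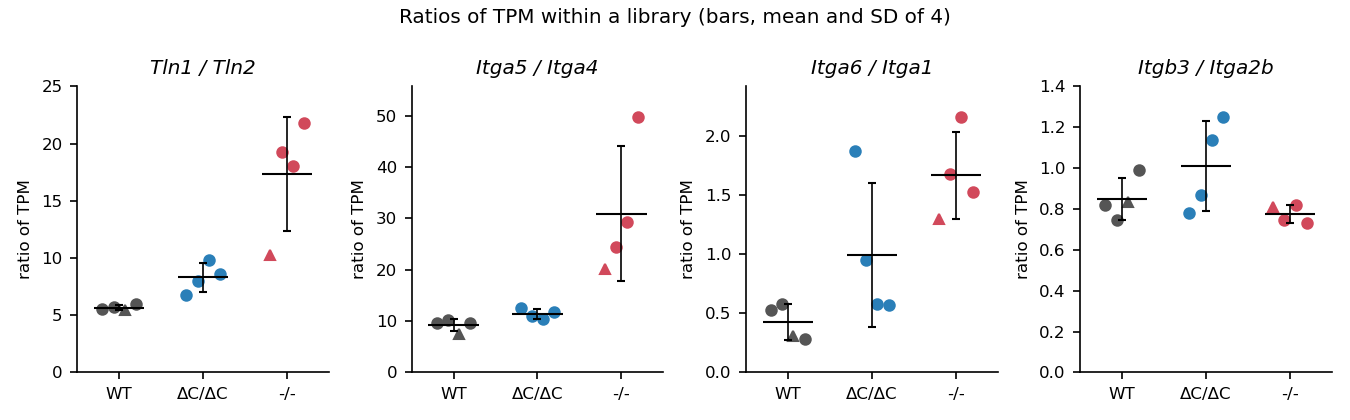
Ratios of TPM within each library for Tln1 over Tln2, Itga5 over Itga4, Itga6 over Itga1 and Itgb3 over Itga2b, by genotype; points are libraries, triangles label letter K, lines means and bars the SD of 4. The first and second ratios separate the 3 genotypes, with KE4 the lowest Gpr124-/- library in each, and the last overlaps between genotypes.

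The wider adhesion machinery was read from a list of 40 further adaptors and regulators, all tested and chosen with earlier results of these data known. In Gpr124-/- against wild type 8 were higher and 4 lower (20% and 10%, beside the 10.5% and 9.32% of all genes), and the median log2 fold change was 0.135. Tns3, a tensin that links beta tails to actin, stood at 0.815, 0.424, 0.875 and 0.680 TPM in the wild-type libraries, 2.89, 2.63, 2.22 and 2.27 TPM in Gpr124ΔC/ΔC and 4.22, 7.41, 5.69 and 7.38 TPM in Gpr124-/-. Its 3 genotypes did not overlap, and it gave the largest change of the list, 3.12 ± 0.26 (SE), adjusted p = 3.61e-06 in Gpr124-/- and 1.79 ± 0.26 (SE), adjusted p = 0.00145 in Gpr124ΔC/ΔC. Ptk2b, the relative of focal adhesion kinase also known as Pyk2, stood at 2.01, 7.45, 6.10 and 7.37 TPM in Gpr124-/- against 0.781, 0.723, 1.26 and 1.42 TPM in wild type (2.44 ± 0.39, adjusted p = 0.000716), with the 3 letter M libraries again far above KE4, as for the platelet markers, whose part was not tested. Apbb1ip, known as RIAM and a recruiter of talin, was higher at a low level (1.84 ± 0.33, adjusted p = 0.00165). Decreases included those of the kinase Src (-1.44 ± 0.35, adjusted p = 0.00974) and the actin crosslinker Actn1 (-0.96 ± 0.28, adjusted p = 0.0283). For Src the wild-type library KE8 (18.5 TPM) lay inside the Gpr124-/- range of 14.1 to 19.8 TPM, and Actn1 was lost without any 1 of JE6, ME1, ME4 or ME5 (adjusted p up to 0.0888). With the label letter in the model Src (-0.44, adjusted p = 0.404), Actn1 (-0.41, adjusted p = 0.622), Ptk2b (0.62, adjusted p = 0.459) and Apbb1ip (1.46, adjusted p = 0.286) did not pass. Tns3 did (2.22, adjusted p = 0.00424), and the list gave 5 higher and 1 lower, beside 3.63% and 2.53% of all genes. Without the letter M libraries it gave 2 higher and 1 lower, beside 1.77% and 1.88%.

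In Gpr124ΔC/ΔC 2 of the 40 were higher and 3 lower (5% and 7.5%, beside 1.85% and 2.24% of all genes). Besides Tns3, the scaffold Nedd9 was higher (0.50 ± 0.093, adjusted p = 0.00727), and the tensin Tns1 (-0.39 ± 0.10, adjusted p = 0.0498) and the paxillin partner Git2 (-0.38 ± 0.086, adjusted p = 0.0251) were among the lower. Both had overlapping ranges, Tns1 was lost without any 1 of 10 libraries (all but LE5 and ME5; adjusted p up to 0.145) and Git2 without JE4, JE6, KE8, LE2 or LE6 (adjusted p up to 0.0918). With the label letter in the model 3 of the 40 were higher and 5 lower in Gpr124ΔC/ΔC, Src (-0.78, adjusted p = 0.00146) among the lower, beside 2.53% and 3.37% of all genes. Without the letter M libraries they were 2 and 1, beside 1.52% and 2.10%. Between the mutants 3 were higher and 0 lower in Gpr124-/- by edgeR (7.5% and 0%, beside 4.93% and 3.89% of all genes), with 6 and 3 at an unadjusted p under 0.05, beside 1919 and 1874 of all 16637 genes. The same fits gave 1 and 0, and 0 and 0 (5 and 0, and 1 and 0, unadjusted), beside 0.974% and 0.301%, and 0.0541% and 0.0379%, of all genes.

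Of 28 integrin ligands, all tested, 12 were higher and 2 lower in Gpr124-/- than in wild type (42.9% and 7.14%, beside the same 10.5% and 9.32% of all genes), with a median log2 fold change of 0.321. This list too was chosen with earlier results of these data known, so its shares are descriptions. The largest increases were those of thrombospondin Thbs1 (2.36 ± 0.42, adjusted p = 0.0014), the matricellular protein Ccn2 (1.66 ± 0.20, adjusted p = 6.27e-05) and the elastic fiber protein Emilin1 (1.30 ± 0.17, adjusted p = 0.00014). Thbs1 is also a platelet product, and it stood at 112, 464, 405 and 539 TPM in Gpr124-/- against 48.3, 62.0, 70.9 and 113 TPM in wild type, with KE4 inside the wild-type range; the part of platelet RNA in that difference was not tested. Fibronectin itself, Fn1, the ligand of alpha5beta1 and alpha4beta1, was lower, at 282, 254, 275 and 339.5 TPM in the wild-type libraries, 129, 174, 218 and 262.5 TPM in Gpr124ΔC/ΔC and 123, 126, 159.8 and 209.6 TPM in Gpr124-/-. All Gpr124-/- libraries lay below all wild-type libraries (-0.93 ± 0.19, adjusted p = 0.00392), so the fibronectin receptor subunit Itga5 and its ligand moved in opposite directions. Tgfb2, a growth factor of the TGF-beta family that was placed on the list, was the other decrease (-0.93 ± 0.14, adjusted p = 0.000353). Whether integrins bind its product was not examined. In Gpr124ΔC/ΔC 1 ligand, the RGD protein Edil3, was higher (1.04 ± 0.22, adjusted p = 0.0154) and 0 were lower by edgeR, which is 3.57% and 0% beside 1.85% and 2.24% of all genes. At an unadjusted p under 0.05, 5 ligands were higher and 4 lower, beside 1206 and 1193 of all 16637 genes. Edil3 was lost without JE1, JE6 or LE2 (adjusted p up to 0.0521). With the label letter in the model 3 ligands were higher in Gpr124ΔC/ΔC, Edil3, Ccn2 (0.85, adjusted p = 0.00314) and Emilin1 (0.59, adjusted p = 0.00423), while 2 were lower, Fn1 (-0.77, adjusted p = 0.00649) and Madcam1 (-0.74, adjusted p = 0.0151). Without the letter M libraries the counts were 2 and 1, with all-gene shares as for the adaptors. Between the mutants 8 ligands were higher and 2 lower in Gpr124-/- (28.6% and 7.14%, beside 4.93% and 3.89% of all genes). For Gpr124-/- against wild type, the ligand counts fell to 3 higher and 1 lower once the label letter was in the model, where Ccn2, Emilin1 and Fn1 passed and Thbs1 (0.62, adjusted p = 0.263) and Tgfb2 (-0.48, adjusted p = 0.357) did not, and to 1 and 1 without the letter M libraries, where the shares of all genes fell to 3.63% and 2.53%, and to 1.77% and 1.88%. Between the mutants both of these fits gave 0 and 0 by edgeR (1 and 2, and 3 and 3, at an unadjusted p under 0.05).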

How the data were processed

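Poly(A)-selected RNA of sorted forebrain endothelial cells was sequenced as 150-base read pairs. The deposited files hold raw read counts per gene and library, and 1 table of TPM made by the authors. TPM recomputed from the deposited counts and gene lengths differed by at most 0.00366% for members at 1 TPM or more. The submitters' processing notes name bcl2fastq 2.17 and mm10. The aligner, counter and strand setting are not given in the sources used here. Gene symbols came from GENCODE vM21. Counts were tested with edgeR 4.0.16 (TMM factors, filterByExpr with a minimum count of 10, quasi-likelihood test, Benjamini-Hochberg adjustment) in 1 model of all 12 libraries, which kept 16637 of 49315 genes and 31 of 36 members. The fit was also run on simulated counts with large planted changes, the same spread for all genes and no letter effect. That run cannot show how the test behaves for small changes or for letter differences. Each library was 1 embryo. The main model held no term for the label letter, so its p-values rest on a spread between embryos that can include differences between letters. In wild type, Itga9 stood at 18.3 and 18.0 TPM in JE1 and JE6, against 11.02 and 11.45 TPM in KE8 and LE6. Single TPM values were compared by an exact permutation test over 70 orders. Alternatives were DESeq2 1.42.0, upper-quartile factors, other filters, limma 3.58.1 on log2(TPM + 1) or log2(TPM + 0.1), the label letter as a term, only the compared genotypes in the fit, and each library left out. Values per library are given for members that passed in at least 1 comparison, and from each wider list up to 3 genes per direction and mutant are named by size of change. Per-library values of Itga7, Itgb1, Itgb5 and Parvb, and all ratios, were added after values were seen. Members and lists were chosen with earlier results of these data known. A gene of the adaptor list that the naming rule selects is counted but not reported here.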

Additional observations from a re-analysis of the deposited data

Results flagged for a closer look

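Each genotype's 4 TPM values were searched for a library far from the other 3, for 31 members in 3 genotypes, 93 groups in all. A group was noted where the gap to the nearest library exceeded 0.829 of the group's whole range, which chance alone gives in about 1 in 20 groups; 3 of the 93 were noted. For Itgb5 in Gpr124ΔC/ΔC, JE3 stood at 1.98 TPM against 0.909 to 0.997 TPM in the other 3 libraries, a gap of 0.918 of the range. For Ilk in Gpr124ΔC/ΔC, JE3 stood at 31.8 TPM against 45.6 to 47.8 TPM, a gap of 0.86. For Fermt2 in Gpr124-/-, ME5 stood at 145 TPM against 178 to 182 TPM, a gap of 0.89.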

How the results depend on the processing

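Counts of members past the adjusted threshold are written as higher and lower. For Gpr124-/- against wild type (9 and 5), the counts stayed within 1.5 times with upper-quartile factors, DESeq2, a mean of at least 50 counts and only the 2 genotypes in the fit; the lower count was 3 with no filter on low counts, 2 with limma on log2(TPM + 1) or log2(TPM + 0.1) and 1 with limma and no filter, and the counts were 1 and 2 once the label letter was added to the model, and 1 and 0 with the letter M libraries left out. Leaving out each library in turn gave 5 to 12 higher, with 5 without ME5, and 2 to 5 lower, with 2 without LE6 and 3 without JE1, JE6, ME1, ME4 or ME5. For Gpr124ΔC/ΔC against wild type (1 and 0), DESeq2 gave 2 and 1, only the 2 genotypes 1 lower, the label letter 3 and 2, and the 3 limma settings 0 and 0 each (3 higher at an unadjusted p under 0.05 in each, and 1, 1 and 2 lower); leaving out 1 library gave 0 to 1 higher, with 0 without any 1 of 9 libraries (JE1, JE6, KE8, LE6, JE4, LE2, LE5, ME1 or ME4), and 0 to 1 lower, with 1 (Parvb) without JE3, where Itga2 took the place of Itgb4 as the 1 higher. For Gpr124-/- against Gpr124ΔC/ΔC (7 and 2), the higher count was 3 with only the 2 genotypes and 3, 2 and 0 with limma on log2(TPM + 1), on log2(TPM + 0.1) and with no filter, the lower count was 0 under all 3 limma settings, and both counts were 0 with the label letter (2 and 1 at an unadjusted p under 0.05) or with the letter M libraries left out (1 and 1). Leaving out 1 library gave 1 to 12 higher, with 12 without KE4, 1 without JE4, ME1 or ME5, 2 without LE2, 3 without ME4 and 4 without LE5, and 2 lower throughout. The sign turned for Itgal in Gpr124-/- against wild type with the label letter (-0.25), and for Itgb3 (-0.26) and Fermt3 (-0.082) in Gpr124-/- against Gpr124ΔC/ΔC with the letter M libraries left out. Beyond fewer samples in the fits that leave libraries out, the cause of these shifts was not tested. No paired analysis was possible because the labels do not say that an embryo number marks a pair, wild type shares fewer than 2 such numbers with either mutant, and a number recurs within Gpr124-/- (KE4 and ME4); the letter, which J, K and L share between genotypes, was fitted as a term as given above. The 7 members with the fewest reads that were still tested held 99 to 508 reads over all 12 libraries, and wide intervals for them do not show that they were alike.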
